A study of Mus musculus with 8 samples.

Results

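A set of 10 mRNA-decay and mRNA-stability genes was followed in mouse Th1 cells: Zfp36, Zfp36l1, Zfp36l2, Elavl1, Khsrp, Hnrnpd, Zc3h12a, Zc3h12d, Rc3h1 and Rc3h2. They were chosen by name, as genes whose proteins bind AU-rich elements or stem-loops in cytokine mRNAs, with earlier results of these data known, and the choice used no threshold on their values. All 10 were found among the 33898 genes of the per-library table, and all 10 passed the filter on low values in both experiments, in which 11575 and 11466 genes were tested. The series holds 8 RNA-seq libraries, 2 in each of 4 groups. Every group came from CD4 T cells of the C57BL/6 strain, stimulated with antibodies to CD3 and CD28. IL-12 (2 ng/ml) and an IL-4 blocking antibody (5 µg/ml) were added, which drives helper cells to the interferon-producing Th1 state. In the knockdown experiment the cells were transduced with a short hairpin RNA against Pcbp1 or with a scrambled hairpin, and total RNA depleted of ribosomal RNA was sequenced. Pcbp1 encodes an RNA-binding protein that also carries iron to ferritin. In the chelation experiment the cells received CPX (ciclopirox olamine), which chelates intracellular iron, or its solvent DMSO, and polyA RNA was sequenced. For the hairpin sequence, the CPX dose and the treatment time, nothing is stated in the sources used here. Because the RNA was selected differently, levels are set side by side only within an experiment. The labels number the replicates without saying that they came from separate cultures or animals, so the p-values measure the spread between these libraries only, which may be technical.

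AU-rich elements are stretches of overlapping AUUUA in the 3′ untranslated region (3′ UTR) of short-lived mRNAs such as those of TNF, GM-CSF and IL-2. Proteins of the ZFP36 (tristetraprolin) family bind them and recruit the CCR4-NOT deadenylase, which shortens the polyA tail and leads to decay, and KSRP and AUF1 also promote decay, while HuR competes for similar sites and stabilizes the mRNA. Regnases are endonucleases and roquins are decay adaptors that both recognize stem-loops, among them the constitutive decay element first described in Tnf. In activated T cells the paracaspase MALT1 cleaves regnase-1 and the roquins, and the kinases p38 and MK2 phosphorylate tristetraprolin and so hold back its activity.

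Several of these genes carry the same motifs as their targets, so the sites are shown for both. The AU-rich nonamer was searched as TTATTTATT and 1 spelling of the constitutive decay element as TTCTGTGAA, on the transcript strand only and with overlapping matches counted, in the 3′ UTR of 1 principal transcript per gene of GENCODE M21 (build GRCm38, not the authors' build). A match is a description of letters and says nothing about binding. Each window below is 30 bases of 3′ UTR exon, 5′ to 3′, and capitals mark nonamers that lie wholly within the window.
Tnf, chr17:35199677-35199706, minus strand: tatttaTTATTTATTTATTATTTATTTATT
Csf2, chr11:54247328-54247357, minus strand: ttttaaatatTTATTTATTTATTTATTtat
Zfp36, chr7:28376950-28376979, minus strand: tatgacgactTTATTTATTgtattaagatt
Zfp36l1, chr12:80108166-80108195, minus strand: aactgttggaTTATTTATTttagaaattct
Zfp36l2, chr17:84184913-84184942, minus strand: actatttaacTTATTTATTatcttgtgaaa
Elavl1, chr8:4285775-4285804, minus strand: atTTATTTATTTATTTATTtTTATTTATTt

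In Tnf (5 nonamers) and Csf2 (4 nonamers) the motifs overlapped in 1 run, whereas Zfp36, Zfp36l1 and Zfp36l2 each held a single nonamer. Elavl1 held 8, with first letters between bases 3794 and 3840 after the stop codon, in a 3′ UTR of 4218 bases. Rc3h1 and Rc3h2 held 1 each, and Khsrp, Hnrnpd, Zc3h12a and Zc3h12d held none, so 6 of the 10 genes carried the motif against 7.19% of 20962 protein-coding 3′ UTRs. Longer 3′ UTRs hold the motif more often: among 3′ UTRs within 25% of the same length, the share was 4.28% for Zfp36, 9.54% for Zfp36l1, 9.38% for Zfp36l2, 17.8% for Elavl1, 29.6% for Rc3h1 and 22.1% for Rc3h2. The decay-element letters, in capitals below, occurred in 2.19% of all 3′ UTRs, and among these genes in both roquins, which are adaptors for that element. Among 3′ UTRs of similar length to theirs the share was 11.0% for Rc3h1 and 7.46% for Rc3h2.
Tnf, chr17:35199577-35199606, minus strand: cagacatgttTTCTGTGAAaacggagctga
Icos, chr1:60999479-60999508, plus strand: agaacaaaatTTCTGTGAAataaaatctgg
Nfkbid, chr7:30428395-30428424, plus strand: tctaggtgatTTCTGTGAAatcgagcccac
Rc3h1, chr1:160968032-160968061, plus strand: tttgtttttgTTCTGTGAAtgaactttatt
Rc3h2, chr2:37373801-37373830, minus strand: tttaattaacTTCTGTGAAgttgtttactc

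**Figure D1:**
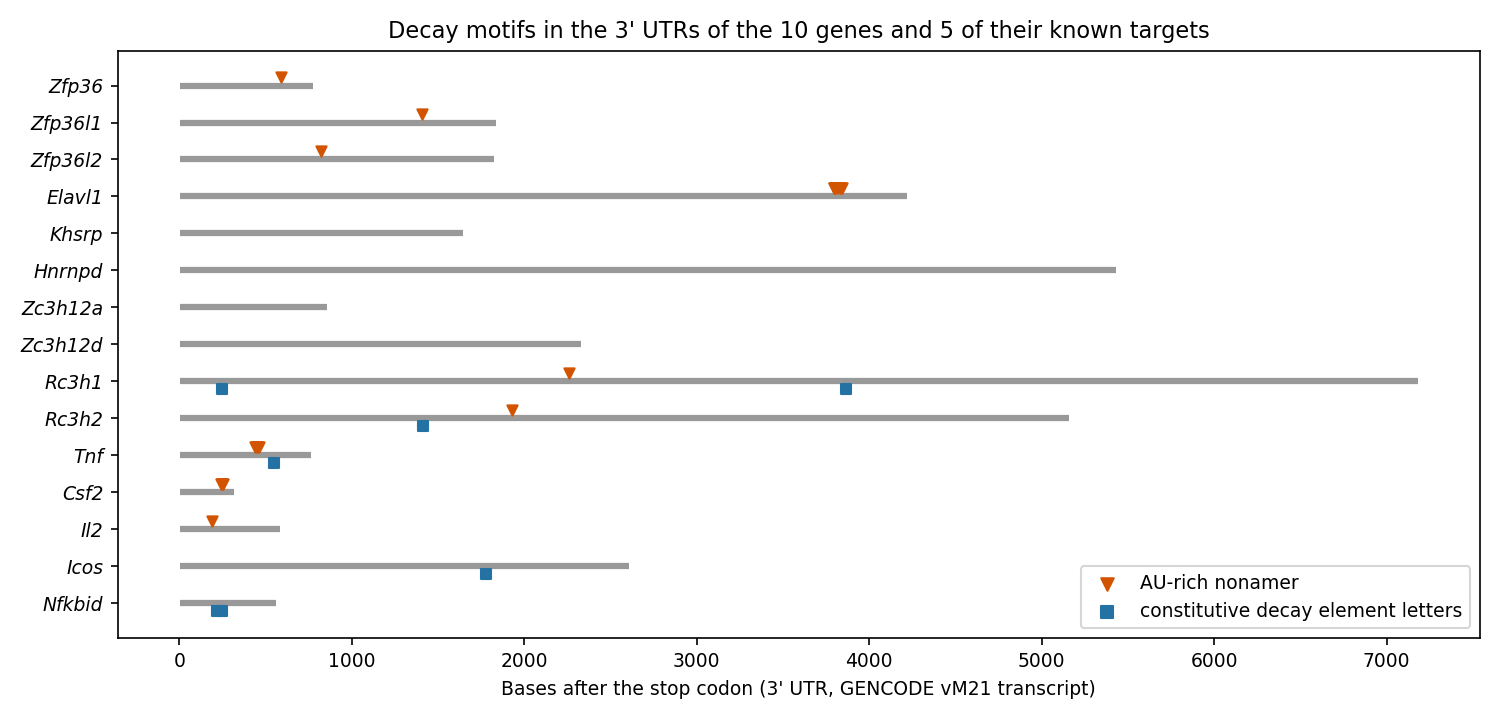
Positions of the AU-rich nonamer (orange triangles) and of the decay-element letters (blue squares) along the 3′ UTR of the 10 genes and of 5 known targets. The x axis counts bases after the stop codon and each grey bar is 1 3′ UTR. The 8 nonamers of Elavl1 lie together near the end of its 3′ UTR, and Rc3h1 holds 2 copies of the decay-element letters.

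Levels are given as RPM, a library's value for the gene over the library's total times 1e+06. The knockdown libraries held 14174293 to 15518303 counts, and the chelation libraries 19193784 to 19662145 units of a rescaled table, so their depth in reads is not known exactly. Pcbp1 fell 3.31-fold with its hairpin, from 44.0 and 51.7 RPM to 15.1 and 16.1 RPM (edgeR's quasi-likelihood test, adjusted p = 3.18e-05), and its mRNA was also lower with CPX (-1.26 on the log2 scale, limma, adjusted p = 0.00613). The 15 T cell and Th1 marker genes were all matched and none was at 0 in any group. Their sum ranged from 43500 to 52778 RPM with the scrambled hairpin and from 21071 to 26799 RPM with the Pcbp1 hairpin. It ranged from 16265 to 27295 RPM with DMSO and from 3244 to 7059 RPM with CPX. In both libraries of every group but CPX most of that sum was Ifng. Ifng stood at 50383 and 40954 RPM under the scrambled hairpin and at 24818 and 18990 RPM under the Pcbp1 hairpin. Under CPX Ifng held 1106 and 4983 RPM, and was most of the sum only in replicate 2. Looked at singly, Cd4 (42.8 and 55.4 against 89.1 and 106 RPM), Cd3e and Tbx21 were higher with the Pcbp1 hairpin. With CPX Cd4 was higher, Cd3e was lower and Tbx21 overlapped. Summed CD8 T and NK markers ranged from 201 to 417 RPM with the scrambled hairpin and from 198 to 369 RPM with the Pcbp1 hairpin, with Cd8a high in each replicate 1 (63.8 and 67.1 RPM) and low in each replicate 2 (6.49 and 6.92 RPM). Summed macrophage, monocyte and dendritic markers (4 of 10 matched) ranged from 2.39 to 4.45 RPM under DMSO and from 31.7 to 42.4 RPM under CPX. Summed B cell markers (2 of 7 matched) ranged from 0.512 to 0.661 RPM under DMSO and from 2.29 to 2.70 RPM under CPX. The neutrophil and erythroid list (1 of 8 matched) went from at most 0.0509 RPM to 5.35 to 7.19 RPM. The fibroblast and packaging cell list (2 of 6 matched) went from 0.203 to 0.460 RPM to 3.12 to 4.32 RPM. Genes could be matched only where some library held a value of at least 10. The neutrophil and erythroid gene stood at no more than 0.0698 RPM with the scrambled hairpin and 0.350 RPM with the Pcbp1 hairpin. That gene reached 10 only in CPX libraries, so its selection required a higher CPX value. Whether the same holds for genes of the other marker lists was not tested. The part of these marker lists in the results was not tested. Replicates differed by more than 2-fold in 0.665% of tested genes with the scrambled hairpin, 0.812% with the Pcbp1 hairpin, 4.57% with DMSO and 15.5% with CPX. Among the 10 genes this held for none in the hairpin groups, for Zc3h12d with DMSO (5.94-fold), and for Hnrnpd (2.31-fold), Zc3h12d (3.36-fold) and Rc3h2 (2.77-fold) with CPX. In these bulk samples, fewer expressing cells and less RNA per cell cannot be told apart.

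Levels between genes were compared per kilobase (kb) of annotated exon. With the scrambled hairpin Rc3h1 stood highest, at 13.1 ± 0.752 RPM per kb (SD, n = 2), and Zfp36 lowest, at 2.12 ± 0.0703 RPM per kb. Between them came Zfp36l1 (9.94 RPM per kb) and Khsrp (9.92 RPM per kb), whose libraries overlapped, then Zc3h12d, Elavl1, Rc3h2, Hnrnpd, Zfp36l2 and Zc3h12a, each apart from its neighbours in both libraries. With DMSO, in polyA RNA, Zfp36l1 stood highest at 264 ± 64.1 RPM per kb and Rc3h2 lowest at 2.47 ± 0.0137 RPM per kb. Khsrp (53.1 RPM per kb), Hnrnpd (52.1 RPM per kb) and Zfp36l2 (44.8 RPM per kb) overlapped with their neighbours in that order, as did Elavl1, Zc3h12d and Zfp36 further down. Zfp36 was the lowest of the 3 ZFP36 family genes in both control groups on this scale, and with CPX it averaged 163 ± 59.5 RPM per kb (SD, n = 2).

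**Figure D2:**
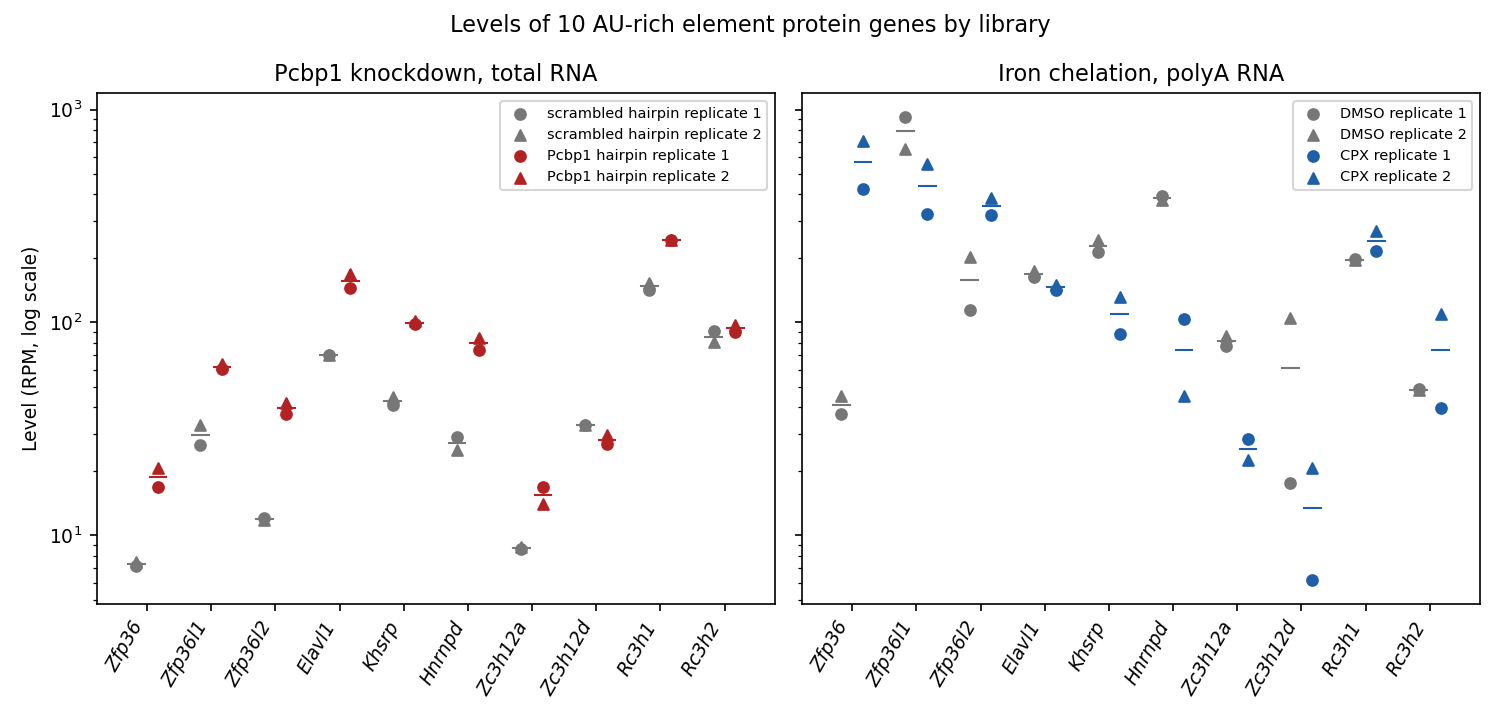
Level of each gene in each of the 8 libraries, in RPM on a log scale, with the knockdown experiment on the left and the chelation experiment on the right. Circles are replicate 1, triangles replicate 2 and short lines group means. With the Pcbp1 hairpin 8 genes lie above both scrambled libraries, whereas with CPX Zfp36, Zfp36l2 and Rc3h1 lie above and Zfp36l1, Elavl1, Khsrp, Hnrnpd and Zc3h12a below both DMSO libraries.

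With the Pcbp1 hairpin 8 of the 10 genes rose, Zc3h12d fell and Rc3h2 did not pass the test (edgeR, Benjamini-Hochberg adjusted p under 0.05 over all genes tested). This experiment moved much of the transcriptome: 56.0% of all tested genes were called, 29.3% of them higher and 26.7% lower as shares of the genes tested. The median log2 fold change was 1.00 over the 10 genes and 0.00 over all genes tested. The groups did not overlap for 9 of the 10 genes, which held for 78.5% of all tested genes, and the higher group was the Pcbp1 hairpin for 8 of the 10 and for 45.8% of all tested genes. All 8 rises were called in each of the 11 alternative fits and left-out libraries tried.

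With CPX the same genes went different ways: Zfp36 and Zfp36l2 rose, Khsrp, Hnrnpd and Zc3h12a fell, and the other 5 did not pass the test (limma on log2(RPM + 0.5), adjusted p under 0.05). Of all tested genes 44.7% were called, 19.9% higher and 24.8% lower. The counts were 2280 genes higher and 2844 lower, and leaving out a single library of either group moved them. The median log2 fold change was -0.54 over the 10 genes and -0.12 over all genes, and scaling by TMM (a trimmed mean that centres the bulk of genes) moved the latter to 0.00. The groups did not overlap for 8 of the 10 genes, 3 higher and 5 lower, against 76.3% of all tested genes, 34.2% of them higher as a share of the genes tested.

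Zfp36 showed the largest change of the 10 genes with CPX. This gene, which encodes tristetraprolin, stood at 7.20 and 7.54 RPM with the scrambled hairpin and at 16.8 and 20.8 RPM with the Pcbp1 hairpin. Its scrambled libraries held 102 and 108 counts, the groups did not overlap, and it rose 2.36-fold (log2 fold change 1.24, SE 0.16, edgeR, adjusted p = 3.95e-04). In the chelation experiment Zfp36 measured 37.3 and 45.0 RPM under DMSO and 421 and 713 RPM under CPX. Both CPX libraries were far above both DMSO libraries, and Zfp36 rose 13.2-fold on the log2(RPM + 0.5) scale (3.73, SE 0.31, limma, adjusted p = 0.00241), a call that held in all 12 alternatives.

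Zfp36l1, a paralog that acts in lymphocyte development, stood at 26.5 and 32.9 RPM with the scrambled hairpin and at 60.6 and 63.6 RPM with the Pcbp1 hairpin. The groups did not overlap and it rose 1.94-fold (0.96, SE 0.12, edgeR, adjusted p = 3.52e-04). In the chelation experiment it measured 925 and 654 RPM under DMSO, against 324 and 553 RPM under CPX. Both CPX values were below both DMSO values, but the log2 fold change of -0.88 (SE 0.32) did not pass (limma, adjusted p = 0.0749). It did without CPX replicate 2 (-1.26, limma, adjusted p = 0.0252) and with quantile normalization (-0.97, adjusted p = 0.0421).

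Zfp36l2, the third family member in these cells, stood at 12.1 and 11.9 RPM with the scrambled hairpin and at 37.2 and 42.0 RPM with the Pcbp1 hairpin. This was the largest rise of the 10 genes in the knockdown, 3.07-fold (1.62, SE 0.11, edgeR, adjusted p = 3.39e-05). DMSO libraries held 114 and 202 RPM of it, and CPX libraries 321 and 384 RPM. The groups did not overlap, and Zfp36l2 rose 2.30-fold (1.20, SE 0.32, limma, adjusted p = 0.0280). The limma call was lost without DMSO replicate 1 (adjusted p = 0.193), CPX replicate 1 (adjusted p = 0.0550) or CPX replicate 2 (adjusted p = 0.0862), and with no filter on low values (adjusted p = 0.0922).

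Elavl1, which encodes HuR, stood at 70.6 and 70.7 RPM with the scrambled hairpin and at 145 and 168 RPM with the Pcbp1 hairpin. It rose 2.06-fold (1.04, SE 0.09, edgeR, adjusted p = 6.20e-05). Under DMSO it measured 164 and 174 RPM, and under CPX 143 and 150.1 RPM. The CPX libraries were slightly lower, without overlap, but the log2 fold change of -0.21 (SE 0.19) did not pass the test (limma, adjusted p = 0.416).

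Khsrp, which encodes the KH-domain decay factor KSRP, stood at 40.9 and 44.8 RPM with the scrambled hairpin and at 98.0 and 102 RPM with the Pcbp1 hairpin, a 2.16-fold rise (1.11, SE 0.08, edgeR, adjusted p = 3.36e-05). In the chelation experiment it went the other way, from 214 and 244 RPM with DMSO to 88.0 and 132 RPM with CPX. Khsrp fell 2.12-fold without overlap (-1.08, SE 0.26, limma, adjusted p = 0.0222). The limma call was lost without DMSO replicate 1 (adjusted p = 0.0873) or DMSO replicate 2 (adjusted p = 0.139), and with no filter on low values (adjusted p = 0.0674).

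Hnrnpd, which encodes AUF1, differed most between the experiments. It stood at 28.9 and 25.1 RPM with the scrambled hairpin and at 74.6 and 84.8 RPM with the Pcbp1 hairpin, and rose 2.74-fold (1.45, SE 0.11, edgeR, adjusted p = 3.87e-05). The DMSO libraries held 392 and 375 RPM, the CPX libraries 104 and 45.0 RPM. Both CPX libraries were low, though they differed from each other, and Hnrnpd fell 5.57-fold (-2.48, SE 0.41, limma, adjusted p = 0.00690). Without CPX replicate 1 the log2 value was -3.08 and without CPX replicate 2 it was -1.88, called in both cases.

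Zc3h12a, which encodes the endonuclease regnase-1, stood at 8.68 and 8.80 RPM with the scrambled hairpin and at 16.9 and 14.0 RPM with the Pcbp1 hairpin. It rose 1.64-fold (0.71, SE 0.14, edgeR, adjusted p = 0.00407), from counts of 123 and 126. In the chelation experiment its DMSO values were 77.5 and 86.0 RPM and its CPX values 28.4 and 22.7 RPM. The groups did not overlap in either experiment, and with CPX Zc3h12a fell 3.17-fold (-1.67, SE 0.25, limma, adjusted p = 0.00554), a call that held in all 12 alternatives.

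Zc3h12d, which encodes regnase-4, stood at 32.9 and 33.1 RPM with the scrambled hairpin and at 26.9 and 29.5 RPM with the Pcbp1 hairpin. It was the only one of the 10 genes called lower in the knockdown, by 1.26-fold (-0.33, SE 0.10, edgeR, adjusted p = 0.0239). That small fall was not called with DESeq2 (adjusted p = 0.0709), with limma (adjusted p = 0.0721), or by edgeR without scrambled replicate 1 (adjusted p = 0.0595), scrambled replicate 2 (adjusted p = 0.0691) or Pcbp1 hairpin replicate 1 (adjusted p = 0.132), and the authors' deposited table gives an adjusted p of 0.0950. DMSO libraries held 17.6 and 104 RPM, and CPX libraries 6.15 and 20.6 RPM. The DMSO libraries differed more from each other than the groups did, the groups overlapped, and the log2 fold change of -1.88 (SE 0.94) did not pass (limma, adjusted p = 0.156). Without DMSO replicate 1 it did (-3.15, limma, adjusted p = 0.00860), and the authors' deposited table gives -2.00 with an adjusted p of 0.00734.

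Rc3h1, which encodes roquin-1, stood at 142 and 154 RPM with the scrambled hairpin and at 244 and 243 RPM with the Pcbp1 hairpin, and rose 1.53-fold (0.61, SE 0.07, edgeR, adjusted p = 1.90e-04). Under DMSO it measured 198 and 196 RPM, and under CPX 216 and 268 RPM, higher in both libraries but short of the threshold (0.29, SE 0.21, limma, adjusted p = 0.300). Its paralog Rc3h2, which encodes roquin-2, was the gene that moved least in the knockdown. Rc3h2 stood at 91.3 and 80.6 RPM with the scrambled hairpin and at 89.8 and 97.6 RPM with the Pcbp1 hairpin, overlapping (0.02, SE 0.08, edgeR, adjusted p = 0.866). The DMSO libraries held 48.6 and 48.2 RPM, and the CPX libraries 39.6 and 109.5 RPM, on both sides of the DMSO values (0.44, SE 0.49, limma, adjusted p = 0.489). Without CPX replicate 1 the Rc3h2 value was 1.17 (limma, adjusted p = 0.00920), and without CPX replicate 2 it was -0.29. Whether Rc3h1 and Rc3h2 differ in their response was not tested.

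**Figure D3:**
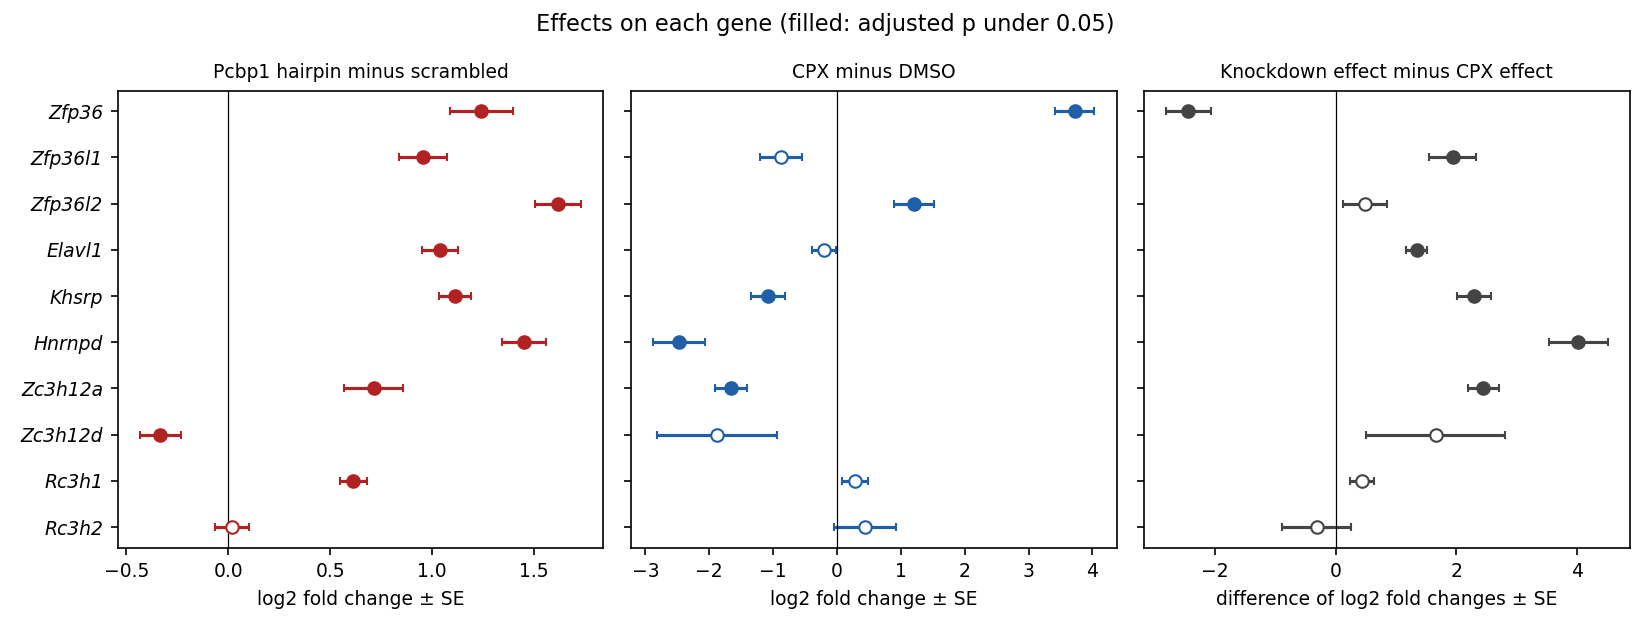
Log2 fold change with its SE for each gene with the Pcbp1 hairpin (left), with CPX (middle) and for the knockdown effect minus the CPX effect (right); filled points have an adjusted p under 0.05. Values on the left run from -0.33 for Zc3h12d to 1.62 for Zfp36l2, and those in the middle from -2.48 for Hnrnpd to 3.73 for Zfp36.

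The direct test of the knockdown effect minus the CPX effect, in 1 limma fit over all 8 libraries, called 5 of the 10 genes higher and Zfp36 lower. Over all 10430 genes tested in both experiments 51.3% were called, 35.2% higher and 16.1% lower. Here the median of all genes was 0.40 and that of the 10 genes 1.50, and TMM scaling brought the former to 0.04 and changed the calls over all genes from 3671 higher and 1675 lower to 2851 higher and 2444 lower. For Hnrnpd the effects differed by 4.02 (SE 0.48, limma, adjusted p = 6.07e-04), the widest gap of the 10. For Zc3h12a the gap was 2.45 (limma, adjusted p = 3.78e-04) and for Khsrp 2.30 (limma, adjusted p = 6.42e-04), the other two genes that rose in one experiment and fell in the other. Zfp36l1 (1.94, limma, adjusted p = 0.00539) and Elavl1 (1.34, limma, adjusted p = 8.84e-04) rose with the Pcbp1 hairpin and had values under 0 with CPX that did not pass. For Zfp36, which rose in both, the CPX effect was the greater by 2.44 (limma, adjusted p = 0.00155). These 6 calls held in all 13 alternatives. The gap for Zfp36l2, which also rose in both, was 0.48 (SE 0.37) and did not pass (limma, adjusted p = 0.304). The RNA selection differed together with the treatment, so its part in these gaps cannot be told apart.

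The other RNA-binding proteins of the same elements showed rises and falls in each experiment. Of 21 tested paralogs and other binders, 12 rose and 4 fell with the Pcbp1 hairpin (median log2 fold change 0.27). Over all tested genes 29.3% were higher and 26.7% lower. Pcbp1, the hairpin's own target, is among the 4 falls of this list. The largest rises were those of Ptbp1, a splicing and stability factor (1.58), Hnrnpab, a relative of AUF1 (1.55), and Hnrnpa0, a target of MK2 (1.38), all called by edgeR. Besides Pcbp1 itself, Tia1 (-0.50) and its paralog Tial1 (-0.31), which silence translation of AU-rich mRNAs, were the genes that fell most. With CPX 3 of 21 rose and 8 fell (median -0.28), and 4 fell without DMSO replicate 1 or with no filter on low values. Over all genes tested with CPX 19.9% were higher and 24.8% lower. Arid5a, which protects stem-loop mRNAs from regnase-1, rose from 40.0 and 30.6 RPM to 165 and 190.3 RPM (2.32, SE 0.24, limma, adjusted p = 0.00289), whereas Zc3h12a fell. Fubp3 (-2.62) and Fubp1 (-1.83), relatives of KSRP, fell beside Khsrp. Cpeb4, which binds polyadenylation elements, rose (1.66). The third gene counted higher, Elavl3, a neuronal relative of HuR, stood at 0.102 and 0.0512 RPM under DMSO and at 3.39 and 4.16 RPM under CPX. Elavl3 passed the filter only through its CPX libraries, and its value of 2.89 ranged from 1.47 to 4.46 with the pseudocount, so its call adds no support. The regnase paralog Zc3h12c was called lower (-1.67, limma, adjusted p = 0.0410) but lost the call without any 1 of DMSO replicate 1, CPX replicate 1 and CPX replicate 2, with adjusted p-values of 0.252, 0.102 and 0.104.

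Genes that act on these proteins were also split. Of 31 kinases, proteases, phosphatases and adaptors, 14 rose and 8 fell with the Pcbp1 hairpin (median 0.08). Over all tested genes 29.3% were higher and 26.7% lower. Mapk14, which encodes p38 alpha, rose from 21.4 and 24.4 RPM to 59.0 and 61.2 RPM (1.28, SE 0.10, edgeR, adjusted p = 5.08e-05), and Mapk11, which encodes p38 beta, fell (-0.53). Mapkapk2, which encodes MK2, did not pass (-0.07, edgeR, adjusted p = 0.498). Malt1 rose (0.54, SE 0.10, edgeR, adjusted p = 0.00246), and Bcl10, its partner in the antigen-receptor signalling complex, fell (-0.59). Ppp2cb, a catalytic subunit of the phosphatase that removes the MK2 marks from tristetraprolin, rose most (1.75). Next came the ubiquitin ligase gene Nedd4l (1.55) and the 14-3-3 gene Ywhag (1.49). Nedd4l was low, at 1.06 and 1.68 RPM with the scrambled hairpin and 4.12 and 4.55 RPM with the Pcbp1 hairpin. The largest fall of the list was that of Chek2 (-0.74, edgeR, adjusted p = 0.00473). Dusp1, which encodes a p38 phosphatase, fell (-0.50), a call lost by edgeR without scrambled replicate 2 (adjusted p = 0.0974) or Pcbp1 hairpin replicate 2 (adjusted p = 0.0520).

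With CPX 19.9% of all tested genes were higher and 24.8% lower. Of the 31 regulators 4 rose and 3 fell (median -0.02). Those 4 were Dusp1, Bcl10, Nedd4l (1.65, called in 10 of 12 alternatives) and Chek2 (1.57, limma, adjusted p = 0.00876). Nedd4l had also risen with the Pcbp1 hairpin, whereas Chek2 had fallen. The rises numbered 2 without either DMSO replicate and 8 without CPX replicate 2, and the falls 5 without CPX replicate 1 and 9 without CPX replicate 2. Dusp1 went from 22.4 and 30.5 RPM to 70.8 and 169 RPM (2.05, SE 0.45, limma, adjusted p = 0.0166), with 1.42 without CPX replicate 2 and 2.67 without CPX replicate 1. Mapk14 fell (-1.32, limma, adjusted p = 0.0346), a call lost without DMSO replicate 2 (adjusted p = 0.202) or CPX replicate 1 (adjusted p = 0.0776). Bcl10 rose (1.80, SE 0.22, limma, adjusted p = 0.00353), and Malt1 (-0.81, adjusted p = 0.0574) and Mapkapk2 (-0.72, adjusted p = 0.0609) did not pass. Irak1 (-1.98), a kinase of innate receptor signalling that acts on regnase-1, fell, as did the 14-3-3 gene Ywhae (-1.36).

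Deadenylation and decapping factors, through which most of these proteins act, were split 15 higher to 7 lower of 29 tested in the knockdown (median 0.36, against 0.00 over all genes). Over all tested genes 29.3% were higher and 26.7% lower. The largest rises of the list were Btg1 (1.29), Tob2 (1.26) and Cnot3 (1.23), of which Btg1 and Tob2 encode adaptors of the CCR4-NOT deadenylase and Cnot3 a subunit. Lsm1 (-0.92) and Pnrc2 (-0.86), both of the decapping machinery, and Btg2 (-0.64) fell. With CPX 4 of 29 rose and 4 fell (median -0.06), but 0 fell without either DMSO replicate, 12 fell without CPX replicate 2 and 10 rose without CPX replicate 1. Over all genes tested with CPX 19.9% were higher and 24.8% lower. Pnrc1 (2.89), Tob1 (2.73) and Pan3 (1.64) were the largest rises of the list. Btg2, which fell with the hairpin, was the other rise with CPX (1.63, limma, adjusted p = 0.0354). Its knockdown effect minus its CPX effect was -2.17 (limma, adjusted p = 0.0182), called in 10 of 13 alternatives. The falls of Parn (-1.59), Cnot8 (-0.99) and Cnot10 (-0.84) were all lost without either DMSO replicate, with adjusted p-values between 0.0990 and 0.261 in limma.

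Known target mRNAs of these proteins, chosen from textbook knowledge, were counted beside all genes. Of 38 tested targets 8 rose and 19 fell with the Pcbp1 hairpin (median -0.30), where 29.3% of all tested genes were higher and 26.7% lower. Of 39 with CPX 8 rose and 16 fell (median -1.19), or 7 fell with no filter on low values, where 19.9% of all tested genes were higher and 24.8% lower. Tnf, with its run of 5 nonamers and its decay element, stood at 873 and 970.5 RPM with the scrambled hairpin and at 1029 and 868 RPM with the Pcbp1 hairpin. Those values overlapped (-0.07, SE 0.10, edgeR, adjusted p = 0.602), but with CPX Tnf fell from 1418 and 1198 RPM to 138 and 370.2 RPM (-2.52, SE 0.46, limma, adjusted p = 0.00962, or 0.0586 with no filter on low values). Leaving out CPX replicate 1 gave -1.81 for Tnf and leaving out CPX replicate 2 gave -3.23. Il2, with 1 nonamer, fell in both (-1.40 with the hairpin, and -4.99 with CPX, or -4.36 without DMSO replicate 1 and -5.62 without DMSO replicate 2). Csf2, with 4 nonamers, fell with the hairpin (-2.19) and was called lower with CPX (-4.17, limma, adjusted p = 0.0387), where its DMSO libraries stood at 1186 and 104 RPM, and the call was lost without CPX replicate 1 (adjusted p = 0.0598) or CPX replicate 2 (adjusted p = 0.162). Its CPX value was -2.42 without DMSO replicate 1 and -5.92 without DMSO replicate 2.

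Other cytokine mRNAs also fell with the hairpin. Il4, the signature cytokine of Th2 cells, had the lowest value of the list (-2.73), followed by Csf2 and by Il21 (-1.81), a helper cytokine for B cells. Il10, which encodes an inhibitory cytokine (-1.42), and Ifng, which encodes interferon gamma (-1.17), were lower too, all called by edgeR. With CPX Ifng was called lower (-2.96, SE 0.71, limma, adjusted p = 0.0213), a call lost without CPX replicate 1 (-1.87, adjusted p = 0.0617) or with no filter on low values (adjusted p = 0.0970), and its value was -4.05 without CPX replicate 2. Il13 fell (-4.65, limma, adjusted p = 0.00793, or 0.0523 with no filter on low values), with -5.86 without CPX replicate 1 and -3.44 without CPX replicate 2. Il10 did not pass (-3.86, limma, adjusted p = 0.0567), though it did without DMSO replicate 1 (-5.11, adjusted p = 0.00413) or CPX replicate 2 (-5.58, adjusted p = 0.0220).

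Not all targets moved together. Myc rose with the hairpin (0.96) and fell with CPX (-4.78). Ptgs2 (1.80, from 2.82 and 2.65 RPM with the scrambled hairpin) and Notch1 (0.91) rose with the hairpin. Both were also called higher with CPX, Ptgs2 by 1.69 (limma, adjusted p = 0.0135) and Notch1 by 1.00 (limma, adjusted p = 0.0104). With CPX the immediate-early genes Fosb (5.84), Egr1 (2.79) and Fos (2.54) rose, Egr1 by 2.07 without CPX replicate 2 and by 3.51 without CPX replicate 1. Icos, a roquin target with the decay-element letters, fell with the hairpin (-0.53) and measured 227 and 484 RPM under DMSO and 178 and 631 RPM under CPX, overlapping (0.02, limma, adjusted p = 0.986). Over all tested genes with an annotated 3′ UTR, the share called lower with the Pcbp1 hairpin was 25.9% of 8517 genes without a nonamer, 21.0% of 572 with 1 and 27.5% of 167 with 2 or more. The shares called higher were 31.9%, 37.2% and 37.1%. With CPX the shares lower were 25.5% of 8873, 23.7% of 608 and 29.0% of 162 genes, and the shares higher 19.97%, 22.04% and 20.37%. The gene classes differed in length too, with median 3′ UTRs of 972, 2119 and 2745 bases in the knockdown set.

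**Figure D4:**
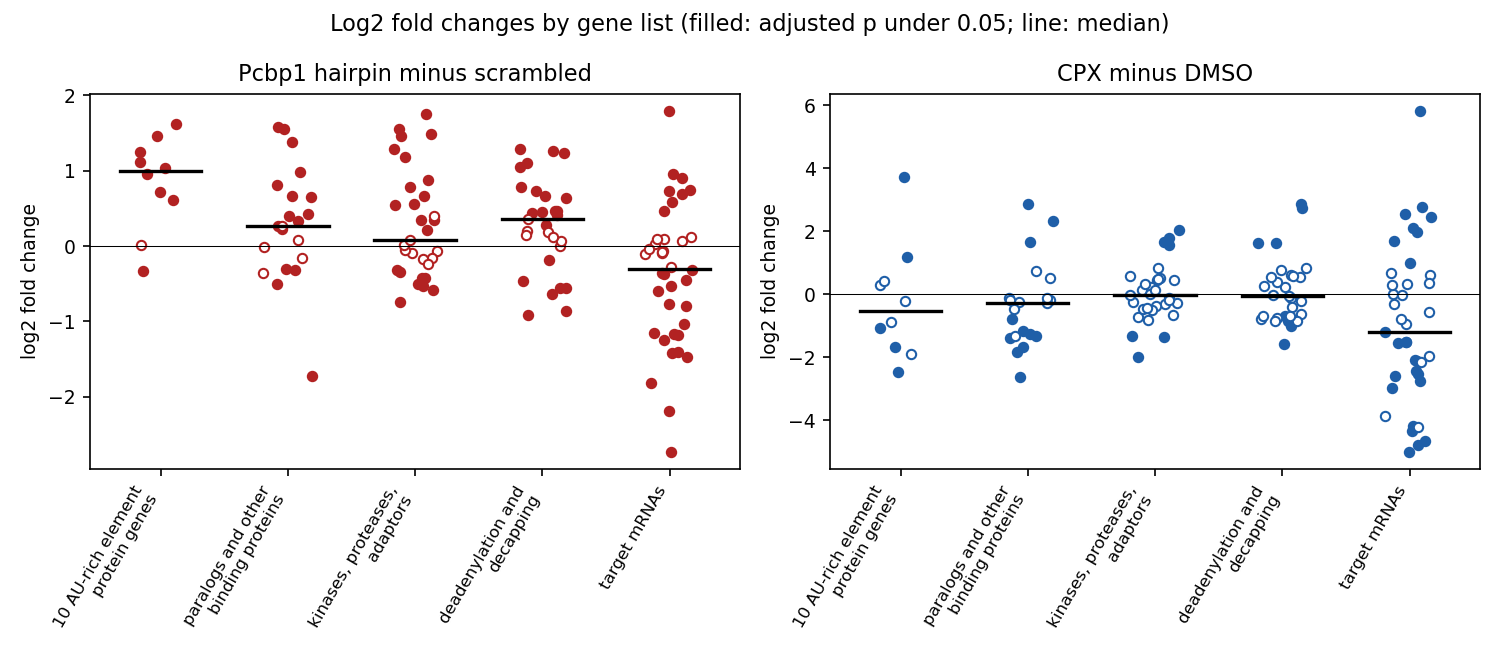
Log2 fold changes of the tested genes in each list with the Pcbp1 hairpin (left) and with CPX (right); filled points have an adjusted p under 0.05 and black lines are medians. In the knockdown the 10 AU-rich element protein genes have a median of 1.00 and the target mRNAs one of -0.30, and with CPX the medians are -0.54 and -1.19.

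For Zfp36, Zfp36l2 and Zc3h12a the genes of most similar pattern were sought among 8111 genes, as the smallest Euclidean distance over the 8 libraries of log2(RPM + 0.5) centred on each experiment's control libraries. Nearest to Zfp36 were Kbtbd7 (distance 0.57), Plagl1 (1.00) and Gpnmb (1.08). Nearest to Zfp36l2 were Hk1 (0.27), P4hb (0.60) and Dync1li1 (0.67), and nearest to Zc3h12a were Ptprs (0.25), Pop1 (0.25) and Rai1 (0.26). The distances were widest for Zfp36, the gene with the largest CPX value of the 10.

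Several of the 10 genes overlap an annotated gene on the opposite strand: Elavl1 overlaps Ccl25, Khsrp overlaps Gm17949, Hnrnpd overlaps Gm17092, and the 3 ZFP36 family genes and Zc3h12d overlap noncoding RNAs. Nothing in the sources used here states whether the authors' counting used the strand, so reads of the partners could not be told apart. On the same strand Rc3h1 overlaps Gm37052, Gm37809 and Gm37653, Rc3h2 overlaps Snord90 and Zc3h12d overlaps Mir5104. A strand setting would not separate those.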

How the data were processed

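RNA-seq values per gene were used for 8 libraries, 2 per group. Per the submitters' processing notes, the authors used cutadapt, STAR, HTSeq and DESeq with mouse build mm9; for versions, annotation and strand setting, nothing is stated in the sources used here. The table of values per library carries the name RPM, the unit the design assumed for CPX, but holds other units. For the knockdown the authors deposited raw counts, and division by 1 size factor per library returns the mean signal of the authors' result table within a relative tolerance of 2e-09. For the chelation experiment the deposited values are treated as a score, counts rescaled by a common factor (1.97 reads per unit) and rounded, and whole reads were not recovered. Per the file headers, the authors' DESeq2 tables hold a mean signal, log2 fold changes with SEs, a Wald score, p-values and adjusted p-values.

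Labels in the per-library table are displaced by 1 line after a line that holds a constant. The 14805 lines that reach 10 in some library were assigned by the authors' mean signals (absolute tolerance 1.2 for CPX): 14455 matched 1 gene and 350 several, and those were left out. All 7208 matched lines before the constant carried their own label, and 7246 of 7247 after it carried another.

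RPM is a value over the library total times 1e+06. A gene was tested where 2 or more of an experiment's 4 libraries reached 1 RPM. The knockdown counts were tested with edgeR 4.0.16 (quasi-likelihood, TMM), and its SE is the absolute log2 fold change divided by the square root of F. CPX and the difference of effects were fitted in R 4.3.3 by limma 3.58.1, with trended variance, to log2(RPM + 0.5), so the SEs of the 2 experiments differ in kind and fold changes of low genes are understated. Benjamini-Hochberg adjustment ran over all genes tested, with a threshold of 0.05. DESeq2 1.42.0 was an alternative. The fits were also run on simulated data, which gave every gene in every group the same set spread beyond counting noise. The CPX replicates differed by more than 2-fold in 15.5% of tested genes, so that run does not represent their spread. The text names genes from this set: all 10 members, the 3 largest rises and 3 largest falls called in each list and comparison, and Tnf, Ifng, Il2, Csf2, Il10, Icos, Pcbp1, Malt1, Mapkapk2, Mapk14 and Dusp1. Members and lists were chosen with earlier results of these data known. Mitochondrial genes held 21.1% to 22.5% of the knockdown totals and 1.41% to 1.86% of the others. Sequences and exon lengths came from GENCODE M21 on GRCm38.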

Additional observations from a re-analysis of the deposited data

How the results depend on the processing

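The 8 rises in the knockdown were called in all 11 alternatives, the CPX calls of Zfp36, Hnrnpd and Zc3h12a in all 12, and the 6 called differences in all 13. In the knockdown no member was called lower with DESeq2 or limma (0 each; Zc3h12d -0.35, adjusted p = 0.0709, and -0.22, adjusted p = 0.0721), and with single libraries left out 0 to 1 was (Zc3h12d -0.43 to -0.25). With no filter on low values, CPX left 1 member higher (Zfp36l2 1.20, limma, adjusted p = 0.0922; Khsrp -1.08, adjusted p = 0.0674) and 4 paralogs, 2 deadenylation factors and 7 targets lower; Tnf, Csf2, Dusp1, Egr1, Mapk14, Parn, Cnot8 and Zc3h12c were among the calls it lost. Deadenylation factors called lower with CPX numbered 2 with TMM scaling, 2 without a variance trend and 0 with quantile normalization, which called 7 higher, 5 regulators lower and Zfp36l1 lower (-0.97, adjusted p = 0.0421). Leaving out single libraries in the CPX fit gave 1277 to 1890 genes higher and 1226 to 3745 lower, 1 to 2 members higher, 4 to 8 paralogs lower, 2 to 8 regulators higher and 2 to 9 lower, and 3 to 10 deadenylation factors higher and 0 to 12 lower. It gave -1.26 to -0.49 for Zfp36l1, 0.79 to 1.61 for Zfp36l2, -1.37 to -0.79 for Khsrp, -3.15 to -0.61 for Zc3h12d and -0.29 to 1.17 for Rc3h2. For the difference of effects it gave 1046 to 2154 genes and 1 to 2 members lower, 0.070 to 0.89 for Zfp36l2, 0.39 to 2.92 for Zc3h12d, 0.28 to 0.59 for Rc3h1 and -1.04 to 0.41 for Rc3h2, whose sign reversed without CPX replicate 2 (0.41, limma, adjusted p = 0.0437). The cause was not tested. Leaving mitochondrial genes out of the totals put the members' median at 40.5 RPM (scrambled hairpin) and 91.1 RPM (Pcbp1 hairpin).

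The labels do not say what replicates of the same number share, and their deviations from the group means correlated at 0.29 in the knockdown and 0.10 with CPX. With the replicate block the knockdown gave 8 members higher and 1 lower (3787 and 3561 over all genes), CPX gave 5 members and 5 regulators lower (Zfp36l1 -0.88, limma, adjusted p = 0.0248; Zc3h12d -1.88, adjusted p = 0.00250), and the difference for Zc3h12d was 1.65 (adjusted p = 0.0137).

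With 2 libraries a group, precision is set by replicate spread: counts of members in the knockdown were at least 102, whereas the CPX replicates differed widely for Hnrnpd, Zc3h12d and Rc3h2. A value that did not pass shows no absence of change.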
